A study of Mus musculus with 6 samples.

Results

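The genes described here are 52 genes of the mouse cell cycle, of 21959 genes in the deposited table. They were taken by name as genes that act in the G1 phase, in DNA replication or in mitosis, and their gene IDs were matched to symbols with GENCODE M21. By role, 10 act in G1 and at entry into S phase, 19 in DNA replication and 23 in mitosis. The libraries are described as made from total RNA of neutrophils from mice bearing Hepa1-6 tumours, which grow from a mouse line of hepatoma cells. GPR35 is a cell surface receptor that signals through G proteins, and 3 libraries carry the label GPR35-negative and another 3 the label GPR35-positive. Strain, age and treatment are not given in the sources used here, and both groups are from the same tumour model. Whether the replicates of a group are different animals is not stated in the labels, and p-values here reflect the spread among these 6 samples alone, which may be technical. Levels are FPKM, fragments scaled to the exon length of the gene and to the reads of the library, so levels can be compared between genes. The comparison asks how the cell cycle genes differed between the groups, and how that difference compares with the fall of hepatoma transcripts.

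A dividing cell passes from G1, in which cyclin D with Cdk4 or Cdk6 and then cyclin E with Cdk2 release the E2F transcription factors, into S phase, in which the DNA is copied. Origins of replication are loaded with the Mcm helicase, the helicase is started with Cdc45 and the GINS complex, and polymerases, the Pcna clamp and a supply of deoxynucleotides carry out synthesis. In mitosis, cyclin B with Cdk1 and the Aurora and Polo kinases build the spindle, a checkpoint holds the chromosomes until each is attached, and the anaphase-promoting complex then marks cyclins for destruction. Mature neutrophils are known as cells that have left this cycle, whereas a hepatoma line divides continuously.

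Each library held from 15742744 to 18314104 reads on genes. In the GPR35-negative libraries the hepatocyte and hepatoma markers summed to 33106 ± 849 FPKM (SD, n = 3), and in the GPR35-positive ones to 21510 ± 331 FPKM (SD, n = 3), 0.650 times as much. The sum of mature neutrophil markers was 1058 ± 131 FPKM (SD, n = 3) in the former and 10701 ± 485 FPKM (SD, n = 3) in the latter, with 18 of 18 higher, so both groups held more hepatoma marker RNA than neutrophil marker RNA. Macrophage and monocyte markers went from 46.1 to 971 FPKM, with 12 of 12 tested higher, and pan-leukocyte genes from 213 to 2150 FPKM. A marker under 1 FPKM throughout 1 group enters the test only through the other. Marker counts that hold such genes support nothing by themselves. Of the granule and precursor markers 5 of 7 tested were higher and 1, Prtn3, lower, and their sum went from 28.3 to 69.5 FPKM. Among those not tested, Elane was at most 0.555 FPKM and Mpo at most 0.102 FPKM in any library, and Ctsg was listed at 0 in GPR35-positive replicates 1 and 2, while Prtn3 was at 4.43 to 4.75 and 2.29 to 2.84 FPKM. T, NK and B cell markers summed to 77.1 and 58.1 FPKM, with 3 of 8 tested lower (37.5%). Over all genes tested 45.5% were lower and 23.3% higher, which is the background for the marker counts given here. The count of 3 is near it and is no result about these markers. Fibroblast and endothelial markers summed to 22.5 and 28.3 FPKM, with 5 of 6 tested higher and 1 lower. These sums moved with the same labels as the cell cycle genes, and their part in the differences given here was not tested. In FPKM of bulk RNA, fewer cells of a type, less RNA per cell and more RNA of other cells in the library cannot be told apart.

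As deposited, 42 of the 51 members tested were lower in the GPR35-positive libraries and 0 were higher, whereas median-of-ratios scaling left 24 lower and scaling to the hepatoma markers left 0 lower and 17 higher. The 9 members that did not pass as deposited were Cdk6, Ccne2, Cdkn1a, E2f2, Pcna, Prim1, Tk1, Cenpa and Mki67. The test was limma-trend with Benjamini-Hochberg adjustment at 0.05 across 10060 genes. Of those genes 68.8% passed as deposited, 45.5% lower and 23.3% higher. No member was higher at an unadjusted p under 0.05 either, nor with limma-voom on the recovered reads. In that limma-voom fit 40 of 49 members and 4496 of all 9850 genes were lower. The members' median log2 fold change was −0.32, against −0.19 over all genes tested. Every GPR35-negative library was above every GPR35-positive library for 43 members, against 48.2% of all genes tested. This count, the 42 and the 24 include Pole, which passed the filter on low values only through the GPR35-negative libraries. Median-of-ratios scaling, under which the median over all genes was −0.07, gave the members a median of −0.18. The 18 members that lost their call under it were Mcm4, Cdc6, Cdc45, Gins1, Gins2, Lig1, Tyms, Rrm1, Rrm2, Ccnb1, Cdk1, Bub1, Ttk, Birc5, Tpx2, Nusap1, Cenpe and Cenpf, at log2 fold changes from −0.20 to −0.06. Under it 57.3% of all genes passed, 30.2% lower and 27.1% higher.

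Each phase had lower members and none had a higher one as deposited, a pattern that ended relative to the hepatoma markers. As deposited, 5 of 9 G1 genes tested were lower with a median log2 fold change of −0.43, 16 of 19 replication genes with a median of −0.31, and 21 of 23 mitosis genes with a median of −0.34. With median-of-ratios scaling the counts were 5, 7 and 12. Over all genes tested 45.5% were lower as deposited and 30.2% with median-of-ratios scaling. These shares are also the background for the counts by role below. The G1 share as deposited (55.6%) and the replication share with median-of-ratios scaling (36.8%) are not far from them. Summed over all 52 genes, the level was 1893, 1880 and 1915 FPKM in the GPR35-negative and 1504, 1467 and 1484 FPKM in the GPR35-positive libraries. The groups did not overlap, and the ratio of the sums was 0.783. It was 0.843 for G1, 0.762 for replication and 0.752 for mitosis. Cdkn1a, which makes an inhibitor of cyclin-dependent kinases and did not pass the test, had the highest level of the 10 G1 genes. E2f8, which makes an E2F family repressor, was below the filter on low values and is not among the 51. With no filter, 43 of 52 members and 4382 of all 19818 genes were lower as deposited. E2f8 was listed at 0.831, 0.770 and 0.875 FPKM in the GPR35-negative libraries and 0.450, 0.551 and 0.562 FPKM in the others. These values came from 42 to 78 reads, and the groups did not overlap.

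**Figure D1:**
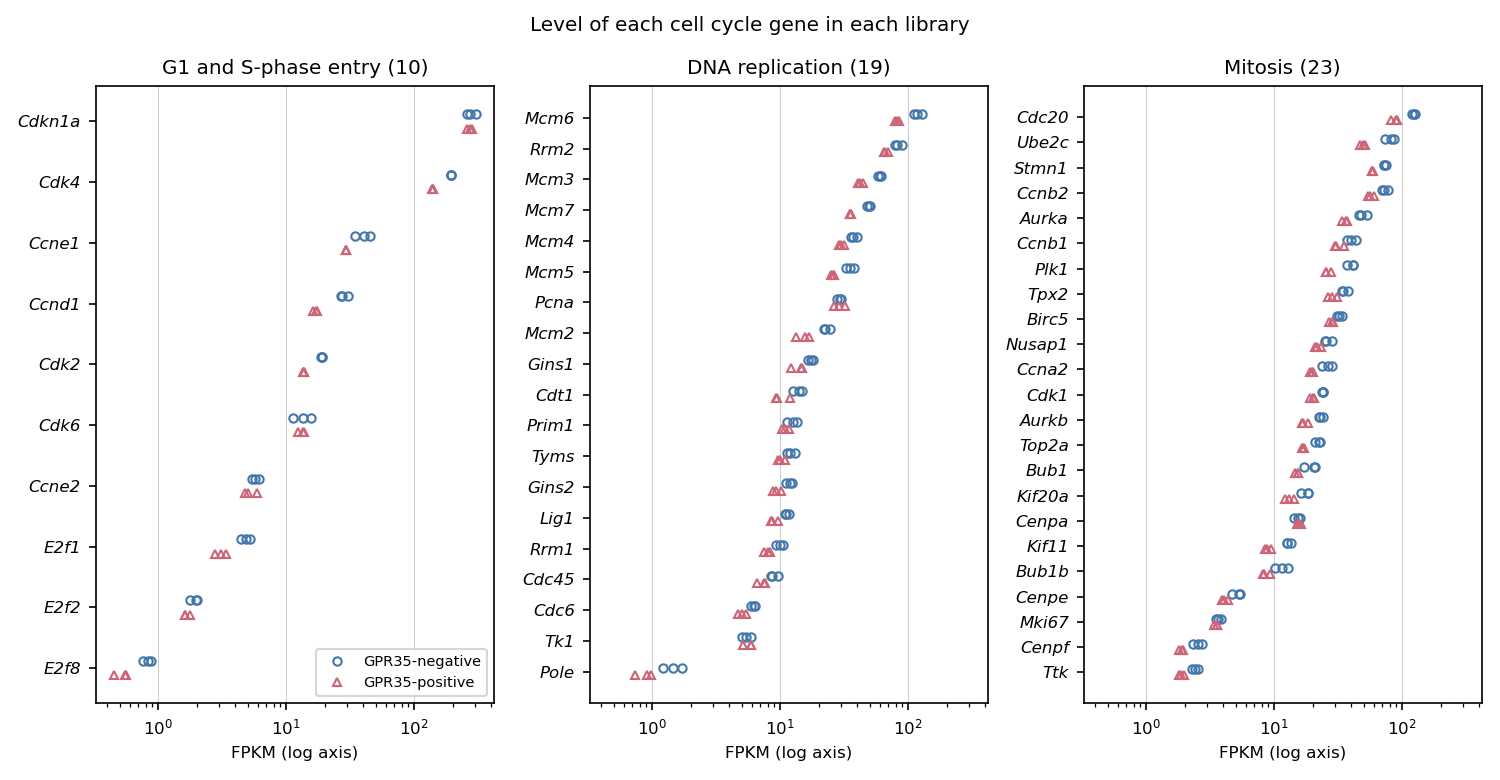
FPKM (log axis) of the 52 cell cycle genes in each library, by phase and ordered by their GPR35-negative mean, with open circles for the 3 GPR35-negative and open triangles for the 3 GPR35-positive libraries. For 43 of the 51 genes tested all circles lie to the right of all triangles, while those of Cdk6, Ccne2, Cdkn1a, Pcna, Prim1, Tk1, Cenpa and Mki67 overlap.

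Promoter stretches of 5 members are shown because they contrast replication with mitosis genes and include a gene that did not pass the test. Promoter windows of RefSeq, on GRCm38.p6, run from 250 bases before to 50 bases after the annotated start and were found for 41 of 52 members, in 46 windows of 32851 in all. Searched on both strands were the cell cycle homology region, or CHR, as TTTGAA, and the CCAAT box as CCAAT. An E2F motif was searched as TTCCCGC and also in a form written TTGGCGC, while the third form was TTGCCGC and the last form searched was TTCGCGC; matches of these forms can overlap one another. A CHR was in 13 of 18 windows of mitosis genes (72.2%), 2 of 18 of replication genes (11.1%) and 17.9% of all windows. An E2F motif was in 12 of 18 windows of replication genes (66.7%), 3 of 18 of mitosis genes (16.7%) and 9.57% of all windows. A CCAAT box was in 16 of 18 windows of mitosis genes, 11 of 18 of replication genes and 37.4% of all. By result rather than phase the shares were closer: a CHR was in 37.1% of 35 windows of members that were lower as deposited and in 30% of 10 windows of members that did not pass. Each stretch is 200 bases upstream of the gene's annotated exons, read 5′ to 3′ on the gene's strand, with CHR and E2F matches in capitals. A match describes these letters and is not a measured site. Top2a (chr11:99024190-99024389, reverse strand) and Kif11 (chr19:37376182-37376381, forward strand) hold CHR matches. Mcm6 (chr1:128359706-128359905, reverse strand) and Mcm5 (chr8:75109309-75109508, forward strand) hold E2F matches. Mki67 (chr7:135716380-135716579, reverse strand) holds both.
Top2a: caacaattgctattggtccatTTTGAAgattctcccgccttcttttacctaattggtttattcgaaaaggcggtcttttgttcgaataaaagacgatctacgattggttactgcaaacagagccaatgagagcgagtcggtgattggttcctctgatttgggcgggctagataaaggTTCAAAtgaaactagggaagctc
Kif11: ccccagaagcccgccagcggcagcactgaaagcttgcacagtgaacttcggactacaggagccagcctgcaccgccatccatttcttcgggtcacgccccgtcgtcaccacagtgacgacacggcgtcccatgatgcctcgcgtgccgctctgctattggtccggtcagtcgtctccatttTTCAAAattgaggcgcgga
Mcm6: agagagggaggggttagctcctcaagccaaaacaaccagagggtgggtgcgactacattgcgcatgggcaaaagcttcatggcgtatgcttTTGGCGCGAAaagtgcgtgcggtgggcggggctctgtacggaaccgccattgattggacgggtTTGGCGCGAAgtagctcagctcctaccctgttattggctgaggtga
Mcm5: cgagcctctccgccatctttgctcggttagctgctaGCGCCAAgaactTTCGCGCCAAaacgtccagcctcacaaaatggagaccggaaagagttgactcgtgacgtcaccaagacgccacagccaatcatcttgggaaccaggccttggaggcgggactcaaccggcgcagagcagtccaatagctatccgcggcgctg
Mki67: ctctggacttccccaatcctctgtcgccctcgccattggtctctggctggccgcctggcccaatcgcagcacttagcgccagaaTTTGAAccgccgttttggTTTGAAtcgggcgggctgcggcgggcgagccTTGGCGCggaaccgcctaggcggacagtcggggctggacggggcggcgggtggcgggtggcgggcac

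Among the G1 genes, Ccnd1 had the lowest ratio of all members. It makes cyclin D1, the partner of Cdk4 and Cdk6 that responds to growth factors, and is annotated in GRCm38 at chr7:144929931-144939925 on the reverse strand. Ccnd1 was at 26.9, 30.6 and 27.6 FPKM in the GPR35-negative libraries and 16.2, 17.3 and 17.6 FPKM in the GPR35-positive ones. All 3 GPR35-positive libraries were below all 3 GPR35-negative ones. On the log2 scale it changed by −0.70 (SE 0.08, adjusted p = 2.46e-05), with a ratio of 0.600. Cdk4, the kinase that cyclin D1 activates, was among the steadiest members within a group. Its level was 196, 194 and 196 FPKM in GPR35-negative against 140, 139 and 141 FPKM in GPR35-positive libraries, and it fell by 0.48 on the log2 scale (SE 0.06, adjusted p = 6.1e-05). Cdk6, the other kinase of cyclin D, did not pass the test, and its difference from Cdk4 was not tested. Cdk6 was at 15.8, 13.6 and 11.4 FPKM in GPR35-negative and 13.9, 12.3 and 13.5 FPKM in GPR35-positive libraries, which overlapped, and its log2 fold change of −0.03 had a 95% interval of −0.27 to 0.22 (adjusted p = 0.832).

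Of the cyclin E genes 1 passed. Ccne1, which makes cyclin E1, was at 34.8, 40.8 and 45.6 FPKM in GPR35-negative and 29.2, 29.4 and 29.7 FPKM in GPR35-positive libraries. It fell by 0.44 on the log2 scale (adjusted p = 0.00217), the groups not overlapping. Ccne2, which makes cyclin E2, was lower in level, at 5.44 to 6.18 and 4.75 to 5.95 FPKM, and its log2 fold change of −0.12 (95% interval −0.33 to 0.09) did not pass (adjusted p = 0.278). Cdk2, the kinase of cyclin E, fell by 0.43 on the log2 scale (adjusted p = 0.000331). E2f1, an activating transcription factor that drives S-phase genes, was at 5.22, 4.83 and 4.41 FPKM against 3.09, 3.40 and 2.77 FPKM, a ratio of 0.640. On the log2 scale it changed by −0.51 (SE 0.09, adjusted p = 0.000881). E2f2, a related activator, had a log2 fold change of −0.13 (95% interval −0.31 to 0.04, adjusted p = 0.154). Cdkn1a, which makes the p21 inhibitor, was at 273, 259 and 304 FPKM in GPR35-negative and 286, 259 and 272 FPKM in GPR35-positive libraries. The groups overlapped, and the log2 fold change was −0.03 (95% interval −0.20 to 0.14, adjusted p = 0.72), or 0.11 (adjusted p = 0.296) with median-of-ratios scaling.

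All 11 genes of origin licensing and the replicative helicase were lower as deposited, and 6 of them still were with median-of-ratios scaling. Their median log2 fold change was −0.40, and in sum they were at 375 to 394 FPKM in the GPR35-negative and 271 to 283 FPKM in the GPR35-positive libraries. Mcm2 to Mcm7 make the 6 subunits of the helicase that unwinds DNA at origins. Mcm6, the most abundant of them, was at 112, 128 and 117 FPKM against 78.8, 84.3 and 81.7 FPKM, without overlap. It fell by 0.54 on the log2 scale (SE 0.07, adjusted p = 9.52e-05). Mcm2 was at 22.4, 24.6 and 22.0 FPKM against 13.2, 16.8 and 15.7 FPKM and had the lowest ratio of the 6, 0.664. Mcm4 had the highest, 0.805, at 35.6, 39.8 and 37.3 FPKM against 31.8, 29.0 and 29.9 FPKM. The difference between these subunits was not tested.

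The loading factors and the helicase activators had lower mean levels than each of the Mcm genes in both groups. Cdt1, which brings the helicase to origins, was at 14.1, 14.7 and 12.5 FPKM in GPR35-negative and 9.31, 12.03 and 9.41 FPKM in GPR35-positive libraries (log2 fold change −0.40, SE 0.11, adjusted p = 0.00722). It was the member whose GPR35-positive libraries differed most among themselves, with a coefficient of variation of 15.1%. Cdc6, its partner in loading, fell by 0.25 on the log2 scale (adjusted p = 0.0245). Cdc45, which activates the loaded helicase, fell by 0.26 (adjusted p = 0.0212), and the GINS subunits Gins1 and Gins2 by 0.32 and 0.30. The calls of Cdc6 and Cdc45 rested on single libraries. Without GPR35-negative replicate 1 their adjusted p-values were 0.0584 and 0.0656. Cdc6 also lost its call without GPR35-negative replicate 2 (0.0739), GPR35-positive replicate 1 (0.0796) or GPR35-positive replicate 3 (0.0766), and Cdc45 without GPR35-positive replicate 2 (0.08).

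At the fork itself, 2 of 4 genes, Pole and Lig1, were lower as deposited and 1, Pole, with median-of-ratios scaling. Over all genes tested 45.5% and 30.2% were lower, so these counts are near the background. Pole makes the catalytic subunit of DNA polymerase epsilon, which copies the leading strand. It was at 1.73, 1.45 and 1.21 FPKM in GPR35-negative and 0.743, 0.916 and 0.979 FPKM in GPR35-positive libraries, giving the ratio 0.601. Pole reached the filter of 1 FPKM only in the GPR35-negative libraries, so its call as lower is conditioned on the group where it was higher and supports nothing by itself. The counts of lower members, of members without overlap and of low ratios include it. The groups did not overlap, although its GPR35-negative libraries had a coefficient of variation of 17.5%, the widest of any member. Lig1, the ligase that joins Okazaki fragments, fell by 0.31 on the log2 scale (adjusted p = 0.00614). Pcna, the sliding clamp that holds the polymerases on DNA, had a ratio of 1.004. It was at 30.0, 28.1 and 29.2 FPKM against 32.4, 26.4 and 28.8 FPKM, so the GPR35-positive libraries lay on both sides of the others. Its log2 fold change was 0.00 with a 95% interval of −0.18 to 0.19 (adjusted p = 0.987). Prim1, the primase subunit that starts each fragment, was at 11.3 to 13.5 and 10.4 to 11.7 FPKM, with a log2 fold change of −0.17 (adjusted p = 0.109). Among the fits with 1 library left out it passed only without GPR35-negative replicate 3 (adjusted p = 0.0391).

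Of the 4 deoxynucleotide genes, 3 were lower as deposited, and 0 with median-of-ratios scaling. Rrm2, the regulated subunit of ribonucleotide reductase, was at 79.8, 81.3 and 90.2 FPKM in GPR35-negative and 66.6, 64.5 and 70.1 FPKM in GPR35-positive libraries. The groups did not overlap, and it fell by 0.31 on the log2 scale (SE 0.07, adjusted p = 0.00312). Its partner subunit Rrm1 fell by 0.28 (adjusted p = 0.0114), a call lost without GPR35-negative replicate 2 (0.055) or GPR35-positive replicate 3 (0.0645). Tyms, thymidylate synthase, fell by 0.23 (adjusted p = 0.0304). That call was lost without GPR35-negative replicate 1 (0.0913) or 2 (0.0636), and without GPR35-positive replicate 1 (0.0677) or 2 (0.0993). Tk1, the salvage thymidine kinase, was at 5.46, 5.96 and 5.03 FPKM against 5.92, 5.89 and 5.14 FPKM. It overlapped between the groups, with a log2 fold change of 0.04 (95% interval −0.17 to 0.24, adjusted p = 0.735).

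The mitotic cyclins and Cdk1 were all lower as deposited, at a median of −0.34 on the log2 scale, and 2 of the 4 still were with median-of-ratios scaling. Ccnb2, cyclin B2, was at 72.4, 69.3 and 77.3 FPKM in GPR35-negative and 60.0, 54.5 and 55.7 FPKM in GPR35-positive libraries, without overlap. It fell by 0.36 on the log2 scale (SE 0.07, adjusted p = 0.00142). Ccna2, the cyclin A of S phase and early mitosis, fell by 0.38 (adjusted p = 0.00166) and Ccnb1, cyclin B1, by 0.32 (adjusted p = 0.00879). Cdk1, the kinase that these cyclins activate, was at 23.8, 24.0 and 24.2 FPKM against 20.1, 19.3 and 20.6 FPKM. The narrow spread within each group left them apart, and Cdk1 fell by 0.25 on the log2 scale (SE 0.07, adjusted p = 0.00706). It was a smaller difference than for its cyclins, but the difference between these genes was not tested.

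All 7 mitotic kinase and checkpoint genes were lower as deposited, 4 of them also with median-of-ratios scaling. Plk1, the Polo kinase that acts from mitotic entry to cytokinesis, was at 41.5, 41.3 and 37.0 FPKM in GPR35-negative and 25.6, 27.9 and 25.3 FPKM in GPR35-positive libraries. The groups were far apart relative to their spread, with a ratio of 0.657 (log2 fold change −0.59, SE 0.08, adjusted p = 8.38e-05). Aurka, the Aurora kinase of spindle poles, fell by 0.44 (adjusted p = 0.000577), and Aurkb, the Aurora kinase of centromeres, by 0.41 (adjusted p = 0.000975). The checkpoint kinases Bub1, Bub1b and Ttk fell by 0.34, 0.38 and 0.24. Ttk was a gene of few FPKM, at 2.30 to 2.54 and 1.81 to 1.98, and lost its call without GPR35-positive replicate 3 (adjusted p = 0.0768). Birc5, or survivin, which sits in the same complex as Aurkb, had the smallest fall of the 7. It was at 30.9, 32.0 and 33.9 FPKM against 28.5, 26.7 and 28.8 FPKM (log2 fold change −0.20, SE 0.07, adjusted p = 0.0287). That call was lost without GPR35-negative replicate 2 (0.0719) or 3 (0.0798), and without GPR35-positive replicate 2 (0.0967) or 3 (0.0638). With median-of-ratios scaling Birc5 was at −0.06 (adjusted p = 0.531).

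Both genes of the anaphase ubiquitin ligase were lower as deposited and with median-of-ratios scaling, and neither passed relative to the hepatoma markers. Ube2c makes the conjugating enzyme of the anaphase-promoting complex and is annotated in GRCm38 at chr2:164769898-164778822 on the forward strand. Ube2c was at 85.8, 82.4 and 73.1 FPKM in GPR35-negative and 47.2, 51.8 and 49.4 FPKM in GPR35-positive libraries, which did not overlap. It fell by 0.69 on the log2 scale (SE 0.08, adjusted p = 3.21e-05), with a ratio of 0.615. Cdc20, the activator that brings substrates to the complex, was at 126, 125 and 119 FPKM against 90.6, 88.9 and 82.0 FPKM and fell by 0.49 (SE 0.07, adjusted p = 0.00012).

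Of 8 spindle and kinetochore genes, 7 were lower as deposited and 3 with median-of-ratios scaling. The latter share, 37.5%, is near the 30.2% of all genes tested. Kif11, the kinesin that pushes the spindle poles apart, was at 12.6, 13.4 and 12.7 FPKM in GPR35-negative and 8.84, 9.505 and 8.57 FPKM in GPR35-positive libraries. It had the lowest ratio of the 8, 0.694 (log2 fold change −0.48, SE 0.08, adjusted p = 0.000359). Kif20a, a kinesin of the central spindle, fell by 0.41 (adjusted p = 0.00184), Tpx2, the spindle factor that activates Aurka, by 0.32 (adjusted p = 0.00494), and Nusap1, which bundles microtubules, by 0.26 (adjusted p = 0.0114). Stmn1, or stathmin, which destabilises microtubules, was the most abundant of the 8. It was at 72.4, 72.6 and 75.5 FPKM against 58.5, 58.1 and 59.8 FPKM, 2 narrow groups that did not overlap, and fell by 0.32 (SE 0.06, adjusted p = 0.0012). The kinetochore genes Cenpe and Cenpf fell by 0.26 and 0.29, and the call of Cenpe was lost without GPR35-negative replicate 2 (adjusted p = 0.081) or GPR35-positive replicate 2 (0.0681). Cenpa, the histone H3 variant that marks centromeres, was at 16.0, 14.4 and 15.5 FPKM against 15.6, 16.2 and 15.1 FPKM. It overlapped between the groups, and its log2 fold change of 0.03 had a 95% interval of −0.13 to 0.20 (adjusted p = 0.698).

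Of the pair of chromosome genes 1 passed. Top2a, the topoisomerase that untangles sister chromatids, was at 22.4, 22.7 and 21.01 FPKM in GPR35-negative and 17.0, 16.8 and 16.6 FPKM in GPR35-positive libraries and fell by 0.37 on the log2 scale (SE 0.07, adjusted p = 0.000937). Mki67, which makes Ki-67, the common marker of proliferating cells, was at 3.82, 3.55 and 3.64 FPKM against 3.38, 3.55 and 3.60 FPKM. Its groups overlapped, and the log2 fold change was −0.05 (95% interval −0.23 to 0.13, adjusted p = 0.592) as deposited and 0.06 (adjusted p = 0.522) with median-of-ratios scaling. Both promoters hold CHR matches, as printed above.

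**Figure D2:**
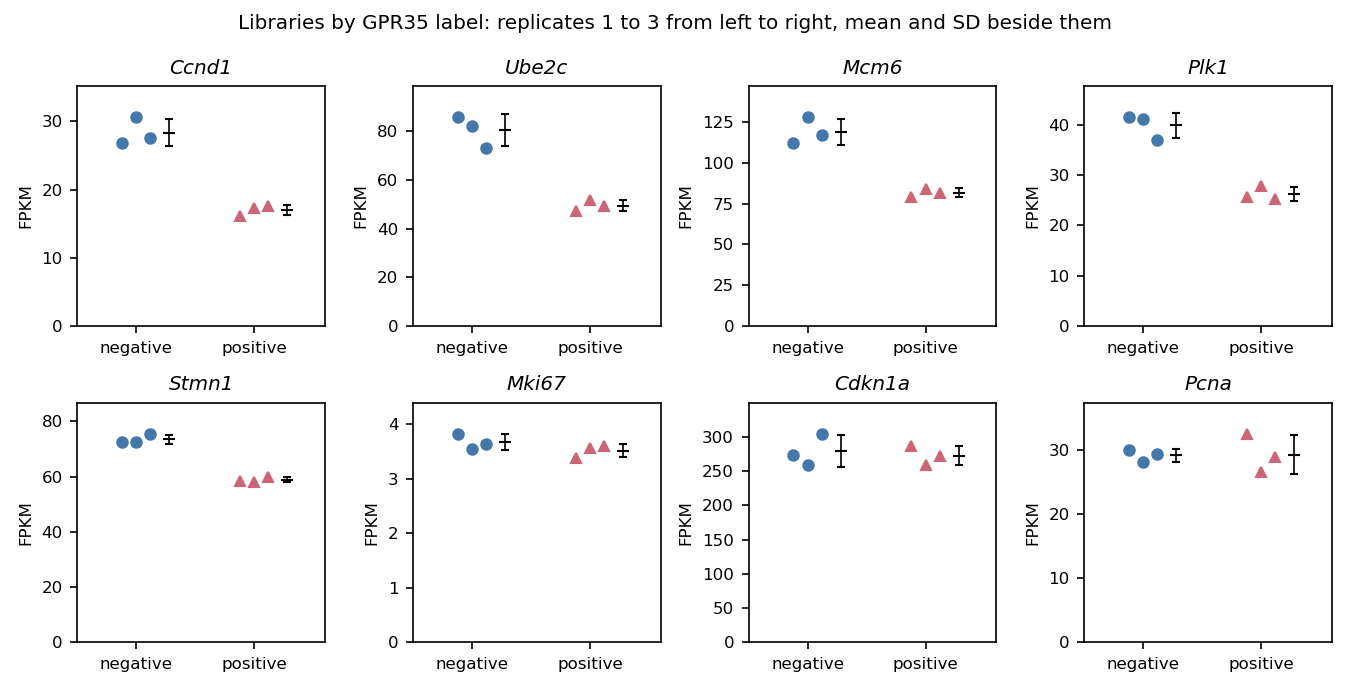
FPKM of 8 cell cycle genes in each library, circles for GPR35-negative and triangles for GPR35-positive replicates, with the mean and SD beside them and each axis starting at 0. The groups are apart for Ccnd1, Ube2c, Mcm6, Plk1 and Stmn1 and overlap for Mki67, Cdkn1a and Pcna.

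The cell cycle genes were then set against the hepatoma transcripts. Of 20 hepatocyte and hepatoma markers tested, 18 were lower as deposited, 1 (Serpina1a) was higher and Apoa2 did not pass, and their median ratio was 0.657. The median ratio of the members was 0.779 and that of all genes tested 0.852. Of the 51 members tested, 41 had a ratio under the all-gene median, but 4 (Ccnd1, Pole, Ube2c and E2f1) had one under that of the summed hepatoma markers. Of the markers, 17 of 20 had a ratio under the members' median. The middle 50% of the members lay in a narrow band, with ratios from 0.729 to 0.823, against 0.724 to 1.17 over all genes tested, and 21 of the 51 lay within the middle 50% of the markers. As a percentage of the summed hepatoma markers, the members' sum was 5.71%, 5.83% and 5.64% in the GPR35-negative and 6.94%, 6.94% and 6.83% in the GPR35-positive libraries, a ratio of 1.21. That ratio was 1.297 for G1, 1.17 for replication and 1.16 for mitosis. Cdkn1a alone was at 279 ± 22.98 FPKM (SD, n = 3) in the GPR35-negative and 272 ± 13.7 FPKM (SD, n = 3) in the GPR35-positive libraries, out of G1 sums of 589 and 496 FPKM. The order was another by the median log2 difference relative to the hepatoma markers, in which G1 was the lowest at 0.10, with 0.21 for replication and 0.15 for mitosis.

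**Figure D3:**
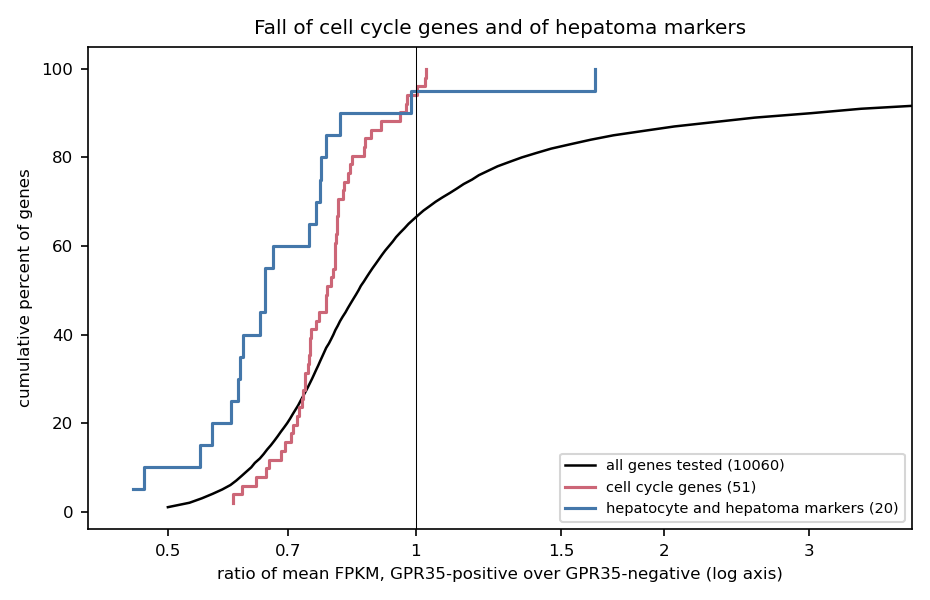
Cumulative percent of genes by their ratio of mean FPKM, GPR35-positive over GPR35-negative (log axis), for all 10060 genes tested, the 51 cell cycle genes tested and 20 hepatocyte and hepatoma markers. The cell cycle genes rise steeply around their median of 0.779, between the medians of the hepatoma markers (0.657) and of all genes (0.852).

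To test each gene against the hepatoma transcripts, every library was divided by a factor, the median over the 20 markers of their level relative to their own mean. The factor's ratio between the groups was 0.683. It was estimated from these libraries and then treated as known, so the p-values below leave out its own error. Relative to it, 17 of 51 members were higher and 0 were lower by limma. At an unadjusted p under 0.05 in the same fit, 24 were higher and 0 lower. Of all genes tested 54.7% passed under this scaling, 52.4% higher and 2.29% lower. The 20 markers that set the factor also differed from it, with 4 higher (20%), 3 lower (15%) and 13 not passing. A member that passed (33.3% were higher) is therefore not set apart from each hepatoma marker. The members' median log2 difference was 0.19, against 0.27 over all genes. By phase, 4 of 9 G1, 7 of 19 replication and 6 of 23 mitosis genes were higher.

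The count of 17 leaned on the factor and on single libraries. It was 29 with a factor from the summed markers, whose ratio between the groups was 0.650. With that factor 6181 of all 10060 genes tested were higher too. Leaving out GPR35-negative replicate 1 or GPR35-positive replicate 1 gave 11, and leaving out GPR35-negative replicate 2 or GPR35-positive replicate 3 gave 10. Without GPR35-negative replicate 1, 1 member, Ccnd1, was lower than the hepatoma markers, by a log2 difference of −0.25 (adjusted p = 0.0293). With all libraries Ccnd1 was at −0.18 (95% interval −0.37 to 0.01, adjusted p = 0.108).

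The members that were higher relative to the hepatoma markers in every alternative that tested them were 9, namely Cdk6, Cdkn1a, Pcna, Prim1, Tk1, Cdk1, Birc5, Cenpa and Mki67. Mki67 was not tested with a mean of at least 5 FPKM, since its level was below that. For Cenpa the log2 difference was 0.55 (SE 0.08, adjusted p = 0.000154), for Pcna 0.53 (SE 0.09, adjusted p = 0.000374), and for Cdkn1a 0.52 (SE 0.09, adjusted p = 0.000535). Tk1 was at 0.50 (adjusted p = 0.00107), Cdk6 at 0.49 (adjusted p = 0.0015) and Mki67 at 0.38 (adjusted p = 0.00198). These 6 genes, which come from every phase, are among the 9 that did not pass as deposited. Dividing by the factor raises the log2 fold changes, so genes that hardly changed as deposited come out higher. The overlap follows from the scaling and is no separate result. Prim1 and Birc5 were each at 0.34, and Cdk1 at 0.27 (SE 0.08, adjusted p = 0.0105). The other 8 (Ccne2, E2f2, Mcm4, Cdc45, Tyms, Rrm2, Nusap1 and Stmn1) were higher by 0.22 to 0.34 and lost the call in at least 1 alternative. Of the 6 fits with 1 library left out, E2f2 kept its call in 0, and Rrm2 and Stmn1 in 1. Mcm4, Cdc45 and Nusap1 kept theirs in 2, Ccne2 in 3 and Tyms in 4.

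At the other end, members with a low ratio did not pass against the hepatoma markers. Mcm6 had a log2 difference of 0.01 (95% interval −0.18 to 0.19, adjusted p = 0.95), Kif11 of 0.02 (−0.17 to 0.21, adjusted p = 0.843), Mcm2 of −0.04 (−0.27 to 0.18, adjusted p = 0.736) and Plk1 of −0.05 (−0.23 to 0.12, adjusted p = 0.595). Ube2c was at −0.15 (−0.31 to 0.02, adjusted p = 0.127). A p that misses the threshold does not show that these genes fell by the same amount as the hepatoma markers.

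**Figure D4:**
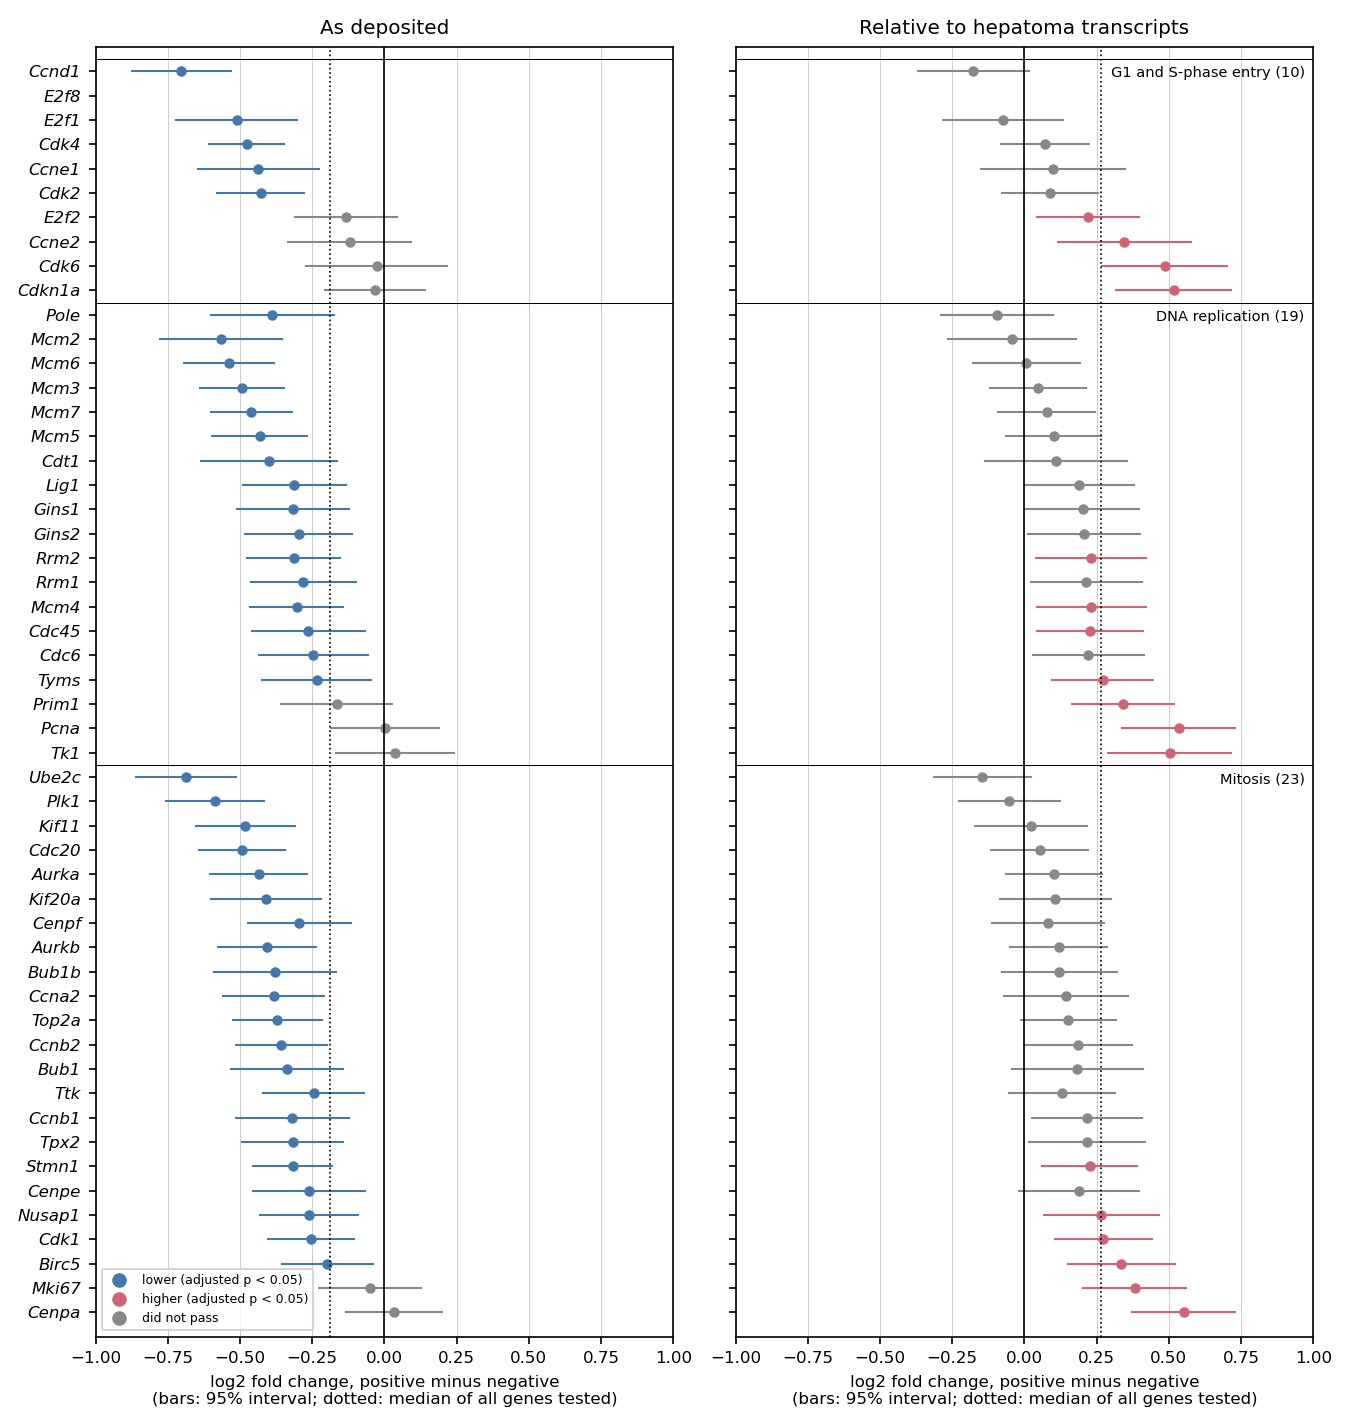
Log2 fold change (GPR35-positive minus GPR35-negative, with 95% interval) of each of the 51 cell cycle genes tested, as deposited on the left and relative to hepatoma transcripts on the right, coloured by whether the gene was lower, higher or did not pass; the dotted line is the median of all genes tested. On the left 42 genes are lower and 0 higher, and on the right 17 are higher and 0 lower.

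Other genes of the same pathways, from lists drawn up by function, were mostly lower as deposited in replication and mitosis, and fewer passed with median-of-ratios scaling. Of 37 other replication genes tested, 25 were lower and 1 was higher as deposited, with a median log2 fold change of −0.30. Those with the smallest p were Pold2 (−0.58, adjusted p = 3.54e-05) and Pold1 (−0.69, adjusted p = 0.000359), subunits of DNA polymerase delta, Rpa1 (−0.53, adjusted p = 6.05e-05), which coats single-stranded DNA, and Dut (−0.60, adjusted p = 0.000116), which removes dUTP. The 1 higher gene was Chaf1b, a histone chaperone of new DNA, at 0.28 (adjusted p = 0.0049). Of 38 other mitosis genes tested, 23 were lower and 1 was higher, with a median of −0.33. Of all genes tested 45.5% were lower as deposited. With median-of-ratios scaling the counts of lower genes were 13 and 16, against 30.2% of all genes, which for the replication genes is near that background. Relative to the hepatoma markers 14 of the 37 and 14 of the 38 were higher, with 0 and 1 lower, against 52.4% of all genes higher and 2.29% lower.

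Ccnf, the mitosis gene that was higher, makes cyclin F, a substrate receptor of a ubiquitin ligase. It was at 5.12, 5.61 and 5.16 FPKM in GPR35-negative and 10.3, 10.8 and 10.2 FPKM in GPR35-positive libraries, without overlap, and rose by 0.86 on the log2 scale (adjusted p = 5.87e-06). Ect2, which acts in cytokinesis, fell by 0.51 (adjusted p = 0.000179), Pkmyt1, an inhibitory kinase of Cdk1, by 0.61 (adjusted p = 0.000215), and Nek2, a centrosome kinase, by 0.60 (adjusted p = 0.000257).

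Of 20 other G1 genes tested, 4 were higher and 11 lower as deposited, and 5 were higher and 6 lower with median-of-ratios scaling. These shares are near those of all genes tested, 23.3% and 45.5% as deposited and 27.1% and 30.2% with median-of-ratios scaling, so the counts say nothing particular about G1. Ccnd2, which makes cyclin D2, a relative of cyclin D1, was at 0.320, 0.345 and 0.297 FPKM in GPR35-negative and 2.14, 2.17 and 1.98 FPKM in GPR35-positive libraries, 6.54 times as high in the latter. It entered the test only through the GPR35-positive libraries, where it reached 1 FPKM, and rested on 44 to 55 reads in the others, so its values are given without a test. The counts of 4 and 5 higher genes include it. Btg1, an antiproliferative gene abundant in resting leukocytes, was at 82.1, 84.9 and 135 FPKM against 539, 408 and 407 FPKM (2.18, adjusted p = 2.29e-06). Mdm2, the ligase that limits p53, rose by 0.53 (adjusted p = 5.48e-05), and Cdkn2d, the p19 inhibitor of Cdk4 and Cdk6, by 0.68 (adjusted p = 5.78e-05). Cdkn2b, the p15 inhibitor, fell by 0.84 (adjusted p = 8.99e-06) and was lower relative to the hepatoma markers too. Pan-leukocyte genes rose in the same libraries, 10 of 10, and their part in the rises of these G1 genes was not tested.

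Within the groups the members were steady. The median coefficient of variation over the 52 genes was 6.35% in the GPR35-negative and 5.31% in the GPR35-positive libraries, lowest for Cdk4 in both, at 0.608% and 0.776%. No 1 library set the level: among the GPR35-negative replicates, replicates 1, 2 and 3 were the highest for 22, 13 and 17 members, and among the GPR35-positive ones for 17, 17 and 18. As deposited, 34 of the 42 lower members passed in all 6 fits with 1 library left out. Pole also passed in the 3 of these fits that tested it, as it was below the filter without any 1 GPR35-negative library. In these fits the count of lower members ran from 36 to 41.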

How the data were processed

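RNA described as that of mouse tumour neutrophils was measured in 6 libraries, which their titles divide into 3 GPR35-negative and 3 GPR35-positive. The authors deposited 1 table of FPKM values, per the file headers. Without giving roles, the submitters' processing notes list HISAT2 2.1.0, fastp 0.22.0, DESeq 1.38.3 and HTSeq 0.9.1. They name GRCh38, a human build, although the gene IDs are of mouse, and the sources used here do not give the annotation. Symbols, positions and exon lengths came from GENCODE M21 (GRCm38), which had 21851 of 21959 IDs. With those lengths 97.7% of values above 0 were whole reads within 0.02, and the total of reads per library was read from these steps. Replicates differed beyond sampling noise, the mean chi-square per gene running from 4.86 to 19.8.

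A gene was tested if 3 or more libraries had 1 FPKM or more, which held for 10060 genes and 51 of 52 members. The two-sided test was limma-trend (limma 3.58.1, R 4.3.3) of group alone on log2(FPKM + 1), and p-values were adjusted by Benjamini-Hochberg across these genes, with 0.05 as threshold. Log2 fold changes are on that scale, on which changes of low genes are understated; ratios are of mean FPKM. Adjusted p-values are from limma throughout. Hepatoma factors were the median over 20 markers of FPKM over the marker's geometric mean. The members, lists and roles were chosen with earlier results of these data known. All members could be named, and of each list of other genes the 4 with the smallest p; Chaf1b and Cdkn2d were named after their values were seen. The sources used here do not say whether strand was used in counting, and near-identical or overlapping genes may share or lose reads.

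On simulated reads for the same libraries, with 9850 genes, 38.1% of 97 genes with a 1.3-fold change and 86.2% of 94 with a 1.5-fold change were called, as were 9 of 9065 unchanged ones. That setting differs from the data, since few genes were changed and all shared 1 dispersion (0.007616). In the data 68.8% of genes passed as deposited, so these shares are not the recovery of the fits above. Tried as alternatives were a pseudocount of 0.1, no filter or a mean of at least 5 FPKM, scaling by median-of-ratios, a factor from summed markers, a replicate block, limma-voom on recovered reads, and each library left out in turn. Promoter windows were of RefSeq. Python 3.11.15 with pandas 2.3.3, numpy 2.4.6 and matplotlib 3.10.9 served for tables and figures.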

Additional observations from a re-analysis of the deposited data

How the results depend on the processing

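The 42 lower members and 4575 lower genes as deposited became 24 and 3036 with median-of-ratios scaling, and the 2342 higher genes became 1260 with a mean of at least 5 FPKM, where 5983 genes were tested. Leaving out each library in turn gave 36 to 41 lower members, 3841 to 4457 lower and 1635 to 2363 higher genes, and 0 higher members each time. Relative to the hepatoma markers, the 17 higher members ran from 10 to 18 and the lower ones from 0 to 1, with 62 to 372 lower genes (230 with all libraries) and 4195 to 5424 higher ones (5273). The factor from summed markers gave 29 higher members, 6181 higher genes and 102 lower genes. With no filter 149 genes were lower, and with a mean of at least 5 FPKM 146 were lower and 3245 higher. The labels do not say whether the replicate numbers pair the samples. Same-numbered libraries correlated in their deviations at −0.00177, 0.400 and −0.0642, and differently numbered ones at −0.373 to 0.248, which does not settle it. A replicate block gave 42 lower members, 4633 lower and 2365 higher genes as deposited, and 18 higher members, 5307 higher and 301 lower genes relative to the hepatoma markers. Signs turned only for members that had not passed. As deposited, Cdk6 was at 0.10, Cdkn1a at 0.11 and Mki67 at 0.062 with median-of-ratios scaling. With 1 library left out, Cdk6 ran from −0.14 to 0.080, Cdkn1a from −0.083 to 0.032, Pcna from −0.074 to 0.069, Tk1 from −0.014 to 0.093 and Cenpa from −0.0068 to 0.065. Relative to the hepatoma markers, Ccne1 ran from −0.038 to 0.21, E2f1 from −0.13 to 0.0023, Mcm2 from −0.11 to 0.050, Mcm6 from −0.071 to 0.061, Cdt1 from −0.0065 to 0.18 and Kif11 from −0.029 to 0.071. The factor from summed markers put Mcm2 at 0.025 and Plk1 at 0.017. The cause of these shifts was not tested. E2f8 was below the filter, and Pole reached it only through the GPR35-negative libraries.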
